A study of Homo sapiens with 4 samples.

Results

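Mitochondrial ribosomal protein genes were taken as all protein-coding genes in the expression table whose current symbol was MRPL or MRPS followed by a number, with pseudogenes left out. This gave 78 genes of 62443 gene identifiers, 49 with MRPL symbols for the large subunit and 29 with MRPS symbols for the small subunit. All 78 passed the expression filter, and 8196 genes were tested in all. RefSeq gives the same symbol for 77 of the 78. The exception, MRPS36, is listed there as KGD4, a protein that links subunits of the alpha-ketoglutarate dehydrogenase complex.

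The mitochondrial ribosome translates the few proteins that the mitochondrial genome still encodes, all of them core subunits of the respiratory chain and ATP synthase. Its rRNAs are transcribed inside the organelle, whereas every one of its proteins is made from a nuclear gene, translated in the cytosol and imported. The particle descends from a bacterial ribosome, so part of its proteins have bacterial counterparts and the rest were gained in the mitochondrial lineage. Endothelial cells draw much of their ATP from glycolysis and hold comparatively few mitochondria.

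The study measured mRNA in EA.hy926 cells, an endothelial line derived by fusing umbilical vein endothelial cells with the lung carcinoma line A549. Each group, miR-187 or the control miRNA labelled miR-NC, holds 2 libraries, and the labels name no other allele or agent. The methods describe delivery of synthetic miRNA by lipid transfection and a single collection time for transfected cells in general, while the dose for these libraries was not given in the sources used here, and all 4 libraries came from 1 line. No source says that replicates were separate cultures, so p-values rest on differences among these 4 libraries that may be technical.

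A miRNA pairs through its seed, bases 2 to 8, with sites in the 3′ UTRs of mRNAs and lowers them. The mature miR-187-3p, encoded on the minus strand at chr18:35904835-35904856 (RefSeq, GRCh38.p14), is shown with its seed in capitals because the search for sites rests on it.
hsa-miR-187-3p: uCGUGUCUuguguugcagccgg

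The 3′ UTRs of protein-coding transcripts in GENCODE 29 (GRCh38) were searched on the transcript strand for AGACACGA (8mer), AGACACG (7mer-m8) and GACACGA (7mer-A1), the first of which contains the other two. Such a site was held by 3 of the 78 members (3.85%), against 3.85% of the 7082 tested genes with an annotated 3′ UTR. The 3 members are printed in the direction of the mRNA, the site in capitals, as the members of the family with a match of this length. The sites lie at chr10:100979006-100979013 on the minus strand, chr9:101388394-101388400 on the minus strand and chr15:88479242-88479249 on the plus strand, each in 1 annotated transcript.
MRPL43 8mer: atccaccttgcAGACACGAgccacacgggc
MRPL50 7mer-m8: ttctgatccagAGACACGgaaaaacaaagg
MRPS11 8mer: gggggctctagAGACACGAccagagagtcc

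Transcripts of these 3 genes had lower FPKM in both miR-187 libraries, but none of them passed the test. MRPL43 measured 70.3 and 86.2 FPKM in the miR-NC libraries and 64.1 and 63.3 FPKM in the miR-187 libraries (log2 fold change -0.29 ± 0.14 SE, adjusted p = 0.129). MRPL50, a mitochondria-specific protein of the large subunit, measured 12.1 and 10.4 FPKM in the miR-NC libraries and 8.20 and 7.60 FPKM in the miR-187 libraries (log2 fold change -0.46 ± 0.20 SE, adjusted p = 0.0957). MRPS11, the counterpart of bacterial S11 on the platform of the small subunit, measured 133 and 115 FPKM in the miR-NC libraries and 108 and 96.0 FPKM in the miR-187 libraries (log2 fold change -0.27 ± 0.13 SE, adjusted p = 0.114). Of the 31 members that passed the test, 0 held a site and 0 held the shorter match GACACG, which occurred in 8.66% of tested genes. Member 3′ UTRs were short, with a median of 475 bases against 1106 bases for tested genes.

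In the deposited FPKM, transcripts of mitochondrial ribosomal proteins were lower in miR-187 cells by close to the median difference of all tested genes. After median-of-ratios scaling, which sets the typical gene equal between libraries, 0 members were called lower and 6 higher (3.7% and 4.67% of all tested genes), and after quantile normalization 4 lower and 4 higher (3.89% and 3.57%). On the log2(FPKM + 1) scale 31 of the 78 members fell and 0 rose (limma, Benjamini-Hochberg adjustment over all tested genes, threshold 0.05), while 27.3% of all tested genes fell and 1.49% rose. The share of tested genes that fell varied with level. It was 21.1% at a mean of 1 to 10 FPKM, 38.2% at 10 to 30 FPKM, 43.2% at 30 to 100 FPKM and 34.7% above that. Of the 78 members 11 lay in the lowest of these ranges. At an unadjusted p under 0.05, 44 members were lower and 1 was higher. The median log2 fold change of the members was -0.43, against -0.39 over all tested genes. It was below 0 for 70 members and ran from -1.61 for MRPL33 to 0.41 for MRPL22, and 41 members lay below the all-gene median and 37 above it. In bulk RNA, fewer cells of a type and less RNA per cell cannot be told apart.

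In FPKM, both miR-187 libraries lay below both miR-NC libraries for 65 members and above them for 5, and the groups overlapped for 8. Over all tested genes the first pattern held for 65.4% and the second for 5.93%. In the 4 fits that each left out 1 library, the median log2 fold change of the large-subunit members ran from -0.46 to -0.30. That of the small-subunit members ran from -0.56 to -0.38, and that of all tested genes from -0.48 to -0.26. All 3 were lowest without miR-NC replicate 1 and highest without miR-NC replicate 2. Of the 31, 12 were called in each of these 4 fits, 5 in 3 of them and 2 in none.

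**Figure D1:**
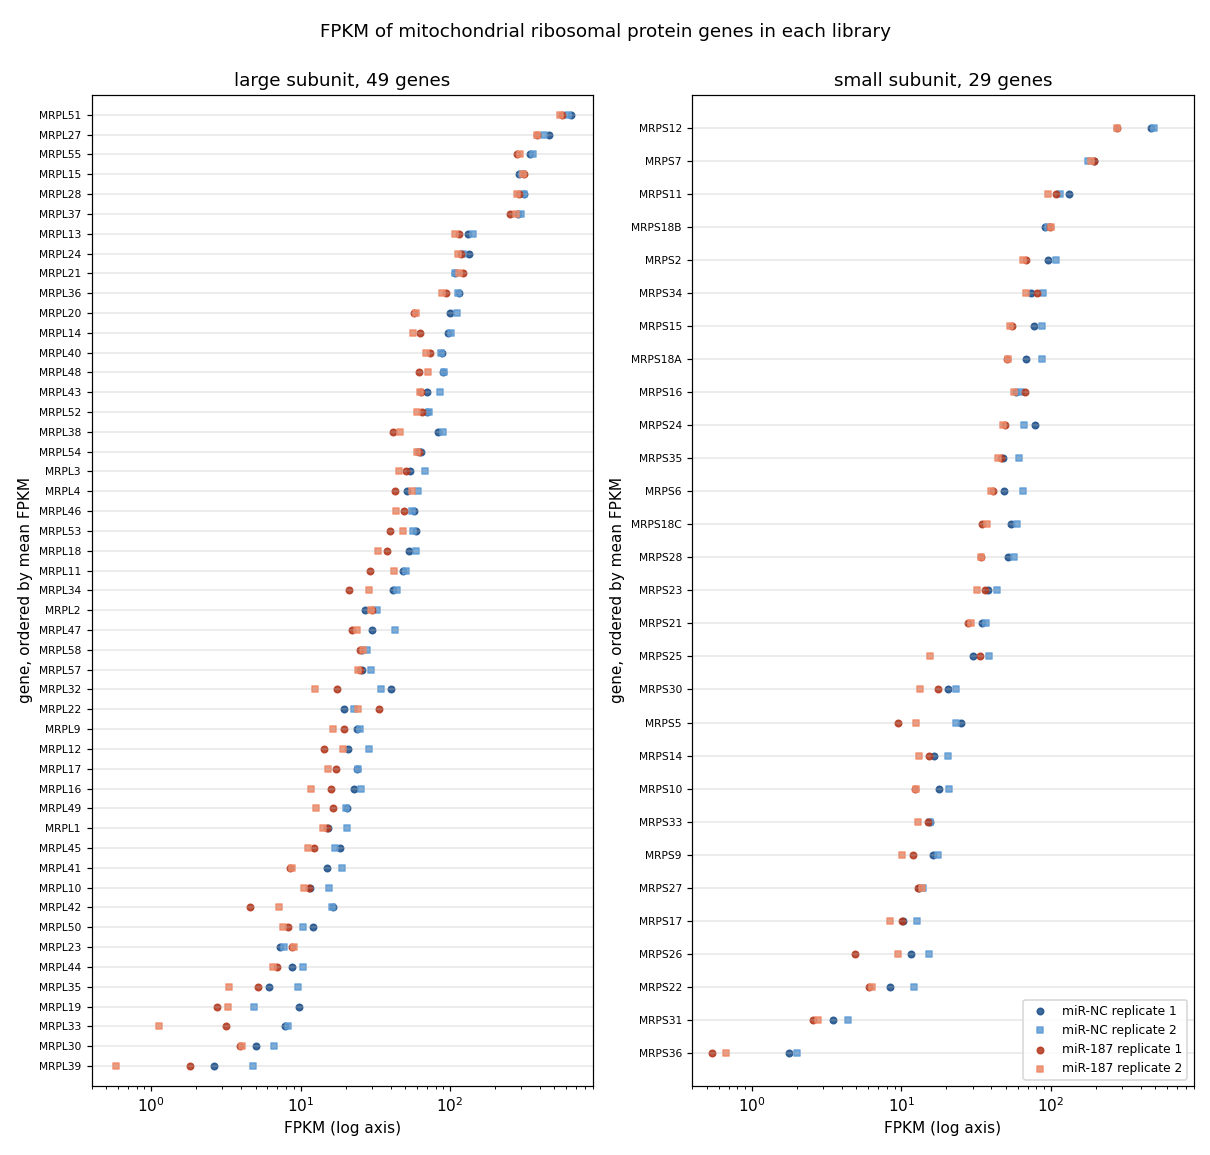
FPKM (log axis) of the 49 large-subunit and 29 small-subunit genes in each of the 4 libraries, ordered by mean FPKM, with circles for replicate 1 and squares for replicate 2. Levels ran from MRPS36 at a mean of 1.25 FPKM to MRPL51 at 591 FPKM, and the miR-187 points lie left of both miR-NC points for 65 genes.

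The family was expressed well above the typical gene. The median of the members' mean FPKM was 35.7, against 4.57 for tested genes. Levels differed 472-fold between MRPS36 and MRPL51, and the 10 most abundant held 54.0% of the family's FPKM. FPKM is scaled by transcript length, so levels can be compared between genes.

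The most abundant members of the large subunit gave small differences that did not pass the test. MRPL51, a mitochondria-specific protein, measured 649 and 611 FPKM in the miR-NC libraries and 558 and 544 FPKM in the miR-187 libraries. MRPL27, the counterpart of bacterial L27 that reaches towards the peptidyl transferase centre, stood at 460 and 425 FPKM against 384 and 383 FPKM. In both genes the groups did not overlap, with log2 fold changes of -0.19 ± 0.09 SE (adjusted p = 0.123) and -0.20 ± 0.10 SE (adjusted p = 0.121). Both values were above 0 after median-of-ratios scaling, at 0.30 and 0.28.

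In the small subunit the most abundant transcript had the smallest adjusted p of the family. MRPS12, the counterpart of bacterial S12 that sits at the decoding centre and governs the fidelity of codon reading, was at 470 and 493 FPKM with miR-NC. It was at 279 and 275 FPKM with miR-187, so that the groups lay far apart compared with the gaps between replicates. The mean fell by 42.5%, from 481 ± 16.6 to 277 ± 2.35 FPKM (SD, n = 2) (log2 fold change -0.79 ± 0.10 SE, adjusted p = 0.000234). Relative to the median of all tested genes the log2 fold change was -0.40, and after median-of-ratios scaling it was -0.31 (adjusted p = 0.165). The gene (ENSG00000128626) lies at chr19:38930548-38933162 on the plus strand in GENCODE 29 (GRCh38). The next most abundant member, MRPS7, the counterpart of bacterial S7 in the head, showed no such gap. It measured 194 and 178 FPKM in the miR-NC libraries and 193 and 186 FPKM in the miR-187 libraries, and the groups overlapped (log2 fold change 0.03, 95% interval -0.21 to 0.26, adjusted p = 0.858).

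Within the large subunit 18 of 49 members fell and 0 rose as deposited, beside 27.3% and 1.49% of all tested genes. In the ranges of level from 10 FPKM up, 34.7% to 43.2% of tested genes fell. After median-of-ratios scaling 0 of the 49 fell and 5 rose, beside 3.7% and 4.67% of all tested genes. The 3 members with the lowest fold changes as deposited were MRPL33, MRPL42 and MRPL32. MRPL33, the counterpart of bacterial L33, measured 7.84 and 8.27 FPKM in the miR-NC libraries and 3.15 and 1.13 FPKM in the miR-187 libraries. Its replicates were close with miR-NC and spread with miR-187, and the groups did not overlap (log2 fold change -1.61 ± 0.30 SE, adjusted p = 0.00282). MRPL33, at chr2:27771717-27988087 on the plus strand, shares 324 exon bases on the same strand with BABAM2, which measured 15.1 and 21.8 FPKM in the miR-NC libraries and 19.0 and 15.7 FPKM in the miR-187 libraries, so the assignment of fragments between both genes is uncertain. MRPL42, a mitochondria-specific protein, measured 16.5 and 16.3 FPKM in the miR-NC libraries and 4.60 and 7.18 FPKM in the miR-187 libraries. Both miR-187 values were far below the tight miR-NC pair (log2 fold change -1.36 ± 0.22 SE, adjusted p = 0.00133). MRPL32, the counterpart of bacterial L32, whose precursor is cut by the m-AAA protease in yeast and mouse before it joins the particle, was at 40.0 and 34.7 FPKM with miR-NC. It was at 17.4 and 12.5 FPKM with miR-187, a mean 60.0% lower (log2 fold change -1.28 ± 0.19 SE, adjusted p = 0.00071). Relative to the median of all tested genes these 3 log2 fold changes were -1.21, -0.97 and -0.89.

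Several members with higher FPKM fell by a smaller amount with tighter replicates. MRPL38, a mitochondria-specific protein of the central protuberance, measured 83.0 and 89.4 FPKM in the miR-NC libraries and 41.3 and 46.4 FPKM in the miR-187 libraries. This was a mean 49.1% lower, with no overlap (log2 fold change -0.96 ± 0.13 SE, adjusted p = 0.000598). MRPL20, the counterpart of bacterial L20, which binds rRNA early in assembly in bacteria, was at 99.6 and 112 FPKM against 57.7 and 59.0 FPKM. The groups did not overlap (log2 fold change -0.84 ± 0.13 SE, adjusted p = 0.000885). MRPL14, the counterpart of bacterial L14 and the docking site of the assembly factor MALSU1, was at 97.3 and 101 FPKM against 63.5 and 56.3 FPKM, again with no overlap (log2 fold change -0.72 ± 0.13 SE, adjusted p = 0.00214).

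The rule for named genes added MRPL41 and MRPL34. MRPL41, a mitochondria-specific protein, measured 14.9 and 19.0 FPKM in the miR-NC libraries and 8.53 and 8.79 FPKM in the miR-187 libraries (log2 fold change -0.89 ± 0.20 SE, adjusted p = 0.00666). MRPL34, the counterpart of bacterial L34, was at 41.4 and 44.5 FPKM against 21.1 and 28.8 FPKM (log2 fold change -0.77 ± 0.17 SE, adjusted p = 0.00674). Here the miR-187 pair was the more variable, and MRPL34 was not called without miR-187 replicate 1 (adjusted p = 0.0987). The other 10 large-subunit members that fell were MRPL16, MRPL17, MRPL18, MRPL19, MRPL36, MRPL39, MRPL45, MRPL47, MRPL48 and MRPL55, with log2 fold changes from -1.12 for MRPL39 to -0.28 for MRPL55.

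Other large-subunit members had fold changes near 0. MRPL2, the counterpart of bacterial L2 and one of the oldest proteins of the ribosome, measured 27.1 and 32.5 FPKM in the miR-NC libraries and 30.3 and 29.6 FPKM in the miR-187 libraries. The miR-187 pair lay inside the miR-NC pair (log2 fold change 0.01, 95% interval -0.33 to 0.35, adjusted p = 0.954). MRPL54, a mitochondria-specific protein near the stalk base, was at 64.4 and 62.3 FPKM against 61.7 and 59.8 FPKM. Its pairs did not overlap but nearly touched (log2 fold change -0.06, 95% interval -0.34 to 0.22, adjusted p = 0.734).

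In the small subunit 13 of 29 members fell and 0 rose as deposited, beside the same shares of all tested genes, 27.3% and 1.49%. After median-of-ratios scaling 0 of the 29 fell and 1 rose, beside 3.7% and 4.67% of all tested genes. MRPS5, the counterpart of bacterial S5 beside the mRNA entrance, measured 24.9 and 23.3 FPKM in the miR-NC libraries and 9.48 and 12.5 FPKM in the miR-187 libraries. The mean was 54.4% lower and the groups were apart (log2 fold change -1.08 ± 0.19 SE, adjusted p = 0.0019). MRPS2, the counterpart of bacterial S2, was at 96.0 and 108 FPKM against 67.7 and 65.2 FPKM (log2 fold change -0.61 ± 0.13 SE, adjusted p = 0.00496). MRPS28, which occupies the place of part of bacterial S1, was at 51.7 and 56.6 FPKM with miR-NC. Its miR-187 libraries read 34.3 and 33.9 FPKM, close to each other and below both controls (log2 fold change -0.65 ± 0.14 SE, adjusted p = 0.00626).

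MRPS15, the counterpart of bacterial S15, measured 76.7 and 87.0 FPKM in the miR-NC libraries and 54.6 and 53.2 FPKM in the miR-187 libraries (log2 fold change -0.59 ± 0.13 SE, adjusted p = 0.00716). MRPS24, which despite its number is the counterpart of bacterial S3 in the head, was at 78.8 and 65.6 FPKM against 49.3 and 47.9 FPKM (log2 fold change -0.56 ± 0.14 SE, adjusted p = 0.0124). In both genes the miR-NC pair was the wider and the miR-187 pair lay below it. MRPS24 shares 606 exon bases on the same strand with URGCP-MRPS24, so the assignment of fragments between these 2 entries is uncertain. URGCP-MRPS24 was at 0 and 5.10 FPKM in miR-NC replicates 1 and 2, and at 0.177 and 0 FPKM with miR-187. MRPS24 was not called without miR-187 replicate 2 (adjusted p = 0.079). The other small-subunit members that fell were MRPS6, MRPS9, MRPS10, MRPS18A, MRPS18C, MRPS26 and MRPS36. MRPS36, the lowest of the family, measured 1.78 and 2.01 FPKM in the miR-NC libraries and 0.542 and 0.675 FPKM in the miR-187 libraries, near the expression filter of 1 FPKM. It passed that filter only through the miR-NC libraries, which favoured a lower call. The counts of members that fell include MRPS36, but its call is no support of its own.

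The members nearest 0 in the small subunit were MRPS16 and MRPS27. MRPS16, the counterpart of bacterial S16, measured 58.1 and 63.1 FPKM in the miR-NC libraries and 67.1 and 56.3 FPKM in the miR-187 libraries. The miR-187 pair enclosed the control pair (log2 fold change 0.02, 95% interval -0.28 to 0.32, adjusted p = 0.921). MRPS27, a pentatricopeptide repeat protein specific to mitochondria, was at 13.1 and 14.004 FPKM against 12.9 and 13.7 FPKM, with overlapping groups (log2 fold change -0.02, 95% interval -0.42 to 0.37, adjusted p = 0.93).

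The 3 paralogs of MRPS18 occupy different places in the particle. MRPS18C stands at the site of bacterial S18, MRPS18B elsewhere in the small subunit, and MRPS18A in the large subunit. MRPS18C measured 54.1 and 59.0 FPKM in the miR-NC libraries and 34.7 and 37.4 FPKM in the miR-187 libraries (log2 fold change -0.64 ± 0.14 SE, adjusted p = 0.00684). MRPS18A was at 68.3 and 86.9 FPKM against 50.6 and 51.3 FPKM (log2 fold change -0.59 ± 0.15 SE, adjusted p = 0.0116). Without 1 library each call was lost, for MRPS18C without miR-187 replicate 1 (adjusted p = 0.06) and for MRPS18A without miR-NC replicate 2 (adjusted p = 0.0709). MRPS18B measured 91.5 and 96.0 FPKM in the miR-NC libraries and 99.1 and 100 FPKM in the miR-187 libraries, both above both controls (log2 fold change 0.09 ± 0.12 SE, adjusted p = 0.588). The difference between the paralogs was not tested.

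**Figure D2:**
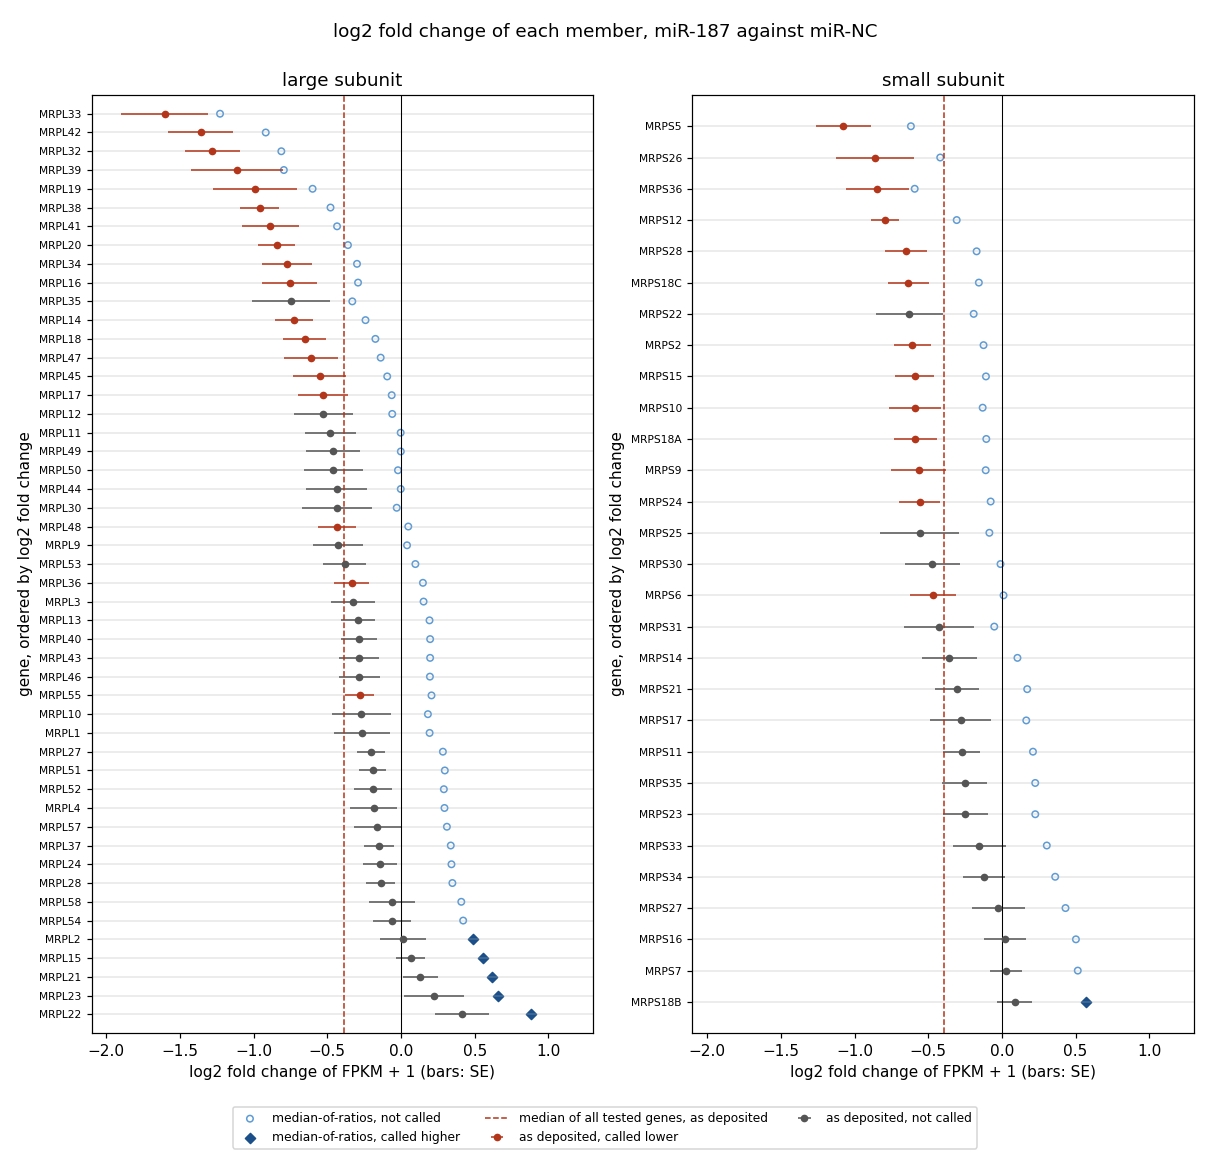
Log2 fold change of FPKM + 1 with miR-187 against miR-NC for each gene of both subunits (filled points, bars are SE, red where the gene was called lower). Blue symbols give the same after median-of-ratios scaling and the dashed line the median of all tested genes as deposited, -0.39. As deposited 31 genes were called lower, and after scaling 6 were called higher (diamonds) and 0 lower.

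How the libraries were scaled decided the calls. Most tested genes (85.2%) had a log2 fold change below 0 in the deposited FPKM. Median-of-ratios scaling moved the median of all tested genes from -0.39 to -0.01. After it 0 members fell and 6 rose, against 3.7% and 4.67% of all tested genes (limma). At an unadjusted p under 0.05, 10 members were then lower and 16 higher. Quantile normalization called 4 members lower (MRPS12, MRPL38, MRPL20 and MRPL14) and 4 higher, against 3.89% and 3.57% of all tested genes. No member was lower with both scalings, and MRPL21, MRPL22, MRPL23 and MRPS18B were higher with both. With median-of-ratios scaling the median of the large-subunit members turned from -0.38 to 0.10, and that of the small-subunit members went from -0.47 to -0.05. Among the members that fell, MRPL36, MRPL48, MRPL55 and MRPS6 had fold changes above 0 after this scaling.

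The members that were higher after scaling were singled out after their values were seen. MRPL22, whose bacterial counterpart lines the exit tunnel for the nascent peptide, measured 19.5 and 22.9 FPKM in the miR-NC libraries and 33.3 and 24.3 FPKM in the miR-187 libraries. As deposited it did not pass the test (log2 fold change 0.41 ± 0.18 SE, adjusted p = 0.104), and after median-of-ratios scaling its log2 fold change was 0.88 (adjusted p = 0.0257). MRPL23, at the mouth of the same tunnel in bacteria, was at 7.30 and 7.70 FPKM against 8.79 and 9.04 FPKM, with a scaled log2 fold change of 0.66 (adjusted p = 0.0398). MRPL21, which binds rRNA in the large subunit, was at 108 and 107 FPKM against 121 and 115 FPKM. Its log2 fold change after scaling was 0.62 (adjusted p = 0.0383), and that of MRPS18B was 0.57 (adjusted p = 0.0366). The miR-187 libraries lay above both controls in each of these 4 genes and in MRPL15, which was at 290 and 302 FPKM against 310 and 309 FPKM. MRPL15 and MRPL2 were called higher with median-of-ratios scaling (0.55 and 0.49) and not with quantile normalization.

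**Figure D3:**
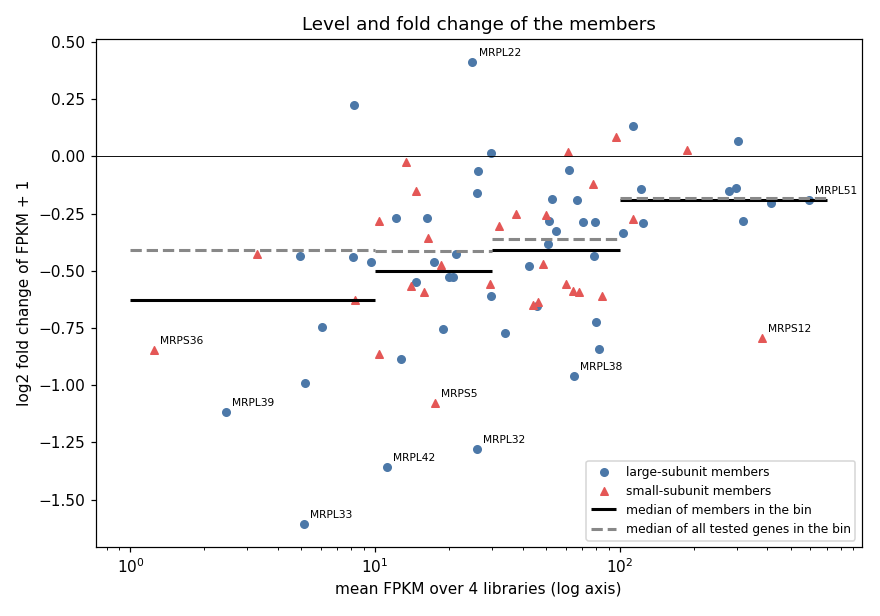
Log2 fold change of FPKM + 1 against mean FPKM over the 4 libraries (log axis) for large-subunit (circles) and small-subunit (triangles) genes. Black bars are the members' median in each range of level and dashed grey bars that of all tested genes. The medians of the members rise from -0.63 below 10 FPKM to -0.19 above 100 FPKM, and MRPS12 lies well below the others at its level.

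Fold changes were lower for the weakly expressed members. The 11 members with a mean of 1 to 10 FPKM had a median log2 fold change of -0.63, and the 26 members at 10 to 30 FPKM one of -0.50. It was -0.41 for the 28 members at 30 to 100 FPKM and -0.19 for the 13 members at 100 FPKM or more. All tested genes in the same ranges had medians of -0.41, -0.41, -0.36 and -0.18, so the members and other genes differed least at the top. Of the 13 members at 100 FPKM or more 3 fell (MRPS12, MRPL55 and MRPL36), beside 34.7% of the tested genes in that range. In the 3 lower ranges, from the lowest up, 4 of 11, 11 of 26 and 13 of 28 members fell. The shares of tested genes there were 21.1%, 38.2% and 43.2%. Spearman's rho of level with fold change was 0.38 over the 78 members and 0.04 over all tested genes, given as a description, since both quantities come from the same 4 libraries.

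The design allows the subunits to be set against each other. Summed FPKM of the large subunit was 4274 and 4353 in the miR-NC libraries against 3615 and 3594 in the miR-187 libraries, a mean 16.4% lower. For the small subunit it was 1805 and 1923 against 1421 and 1348, a mean 25.7% lower. The ratio of the large to the small sum was thus 2.37 and 2.26 in controls against 2.54 and 2.67 with miR-187, and the groups did not overlap. MRPS12 alone made up 25.8% of the small-subunit sum with miR-NC and 20.0% with miR-187. Without it the ratios were 3.20 and 3.04 against 3.16 and 3.35, which overlapped.

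Measures that weigh each gene alike gave no common direction. The median log2 fold change was -0.38 in the large and -0.47 in the small subunit, a difference of 0.09. This difference shrank to 0.022 when MRPS30 and MRPS18A, which sit in the large subunit of the solved particle, were counted there and MRPS36 was left out, and it was 0.148 and 0.138 when replicate 1 or replicate 2 of miR-187 was left out. The mean log2(FPKM + 1) of large minus small was 0.28 and 0.22 in the miR-NC libraries against 0.25 and 0.25 in the miR-187 libraries, which overlapped. The same difference of medians was 0.13 and 0.02 in the miR-NC libraries against -0.17 and -0.10 in the miR-187 libraries, in the opposite direction to the sums. The sums and the library medians thus pointed in opposite directions, and the means overlapped. No shift between the subunits was common to these measures.

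As a share of all FPKM in a library, the family made up 0.825% and 0.849% in the miR-NC libraries against 0.660% and 0.661% in the miR-187 libraries. Its summed FPKM was 6078 and 6276 against 5036 and 4942.

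By place in the particle, members fell in 6 of 7 regions as deposited, where 27.3% of all tested genes fell, and in 0 regions after median-of-ratios scaling. The lists of the 7 regions do not hold every member. MRPL33, MRPL42 and MRPL32, with the lowest fold changes, are in none of them, nor are MRPL34 and MRPL41. Of 6 proteins at the decoding centre and mRNA path, 4 fell (MRPS12, MRPS5, MRPS2 and MRPS28), with a list median log2 fold change of -0.63. Around the exit tunnel 4 of 8 fell, with a median of -0.48. They included MRPL45, which tethers the particle to the inner membrane beside the insertase OXA1L. In the central protuberance, which contacts the head of the small subunit, 4 of 9 fell (median -0.28), led by MRPL38.

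In the early rRNA-binding core 4 of 11 fell (median -0.29), among them MRPL20 and MRPL14, where 27.3% of all tested genes fell. In the head of the small subunit 3 of 8 fell (median -0.39) and in its body and platform 4 of 12 (median -0.37). None of the 5 stalk proteins passed the test in either direction (median -0.38). The stalk recruits the translational GTPases, and MRPL12, its flexible arm, measured 20.7 and 28.8 FPKM in the miR-NC libraries and 14.3 and 19.4 FPKM in the miR-187 libraries (log2 fold change -0.53 ± 0.20 SE, adjusted p = 0.0659). Whether regions differed from each other was not tested.

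Members with a bacterial counterpart fell in 22 of 46 cases (median -0.45) and those without in 9 of 32 (median -0.40), beside 27.3% of all tested genes. The difference was not tested, and 0 members of either kind fell after median-of-ratios scaling. Among the counterparts, 12 of 30 fell in the large subunit (median -0.38) and 10 of 16 in the small subunit (median -0.56). After median-of-ratios scaling 5 of the 46 rose, all in the large subunit, and 1 of the 32, MRPS18B, beside 4.67% of all tested genes.

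Promoters were searched for cores of 3 motifs known from genes of mitochondrial proteins. These were GCATGCGC for the activator NRF1, CCGGAAG for the ETS family that includes the GABP complex, and AAGATGGC for YY1, on both strands of 250 bases before to 50 after the RefSeq start (GRCh38.p14). Promoters of 70 members were matched, with MRPL2, MRPL10, MRPL13, MRPL15, MRPL21, MRPL23, MRPL35 and MRPS28 not among them. Stretches of 30 bases, read in the direction of the gene with the match in capitals, are shown for 3 of the members that fell. They lie at chr17:75905074-75905103 (minus strand), chr1:1407319-1407348 (minus) and chr7:42932326-42932355 (plus).
MRPL38 ETS, reverse complement: tccaacgggcaCTTCCGGagccgggcgtct
MRPL20 ETS: cgaccttcgccCCGGAAGtatcgcaggggc
MRPL32 NRF1, reverse complement: tctgtgcctgtGCGCATGCtgaaagcaggg

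The ETS core was present in 29 of the 70 promoters (41.4%), against 22.9% of promoters of tested genes and 10.7% of all 27305 promoters. The YY1 core was present in 20 (28.6%), against 6.75% and 3.03%. The NRF1 core was present in 6 (8.57%), against 6.48% and 3.27%. No matches of different motifs shared bases, and 33 of 39 ETS matches began before the start whereas 15 of 21 YY1 matches began after it. A match is a run of letters and was not tested as a binding site.

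Each core occurred both in members that fell and in members that did not. The ETS core was in 11 of 30 members that fell and in 18 of 40 that did not, and the YY1 core in 11 of 30 and 9 of 40. The NRF1 core was in 3 of 30 and 3 of 40. Median log2 fold changes with and without a core were -0.38 and -0.47 for ETS, -0.51 and -0.43 for YY1 and -0.36 and -0.44 for NRF1. These shares were not tested. The transcript of NRF1 itself fell, from 1.69 and 1.51 FPKM to 0.503 and 0.790 FPKM (log2 fold change -0.66 ± 0.22 SE, adjusted p = 0.037), at levels near the filter, and was not called after median-of-ratios scaling (adjusted p = 0.215). NRF1 passed the filter only through the miR-NC libraries, which favoured a lower call, so this call is no support of its own. YY1 was at 1.57 and 1.99 FPKM against 1.08 and 1.33 FPKM (adjusted p = 0.268), and GABPA was below the filter in all 4 libraries.

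Of 10 tested regulators of mitochondrial genes 4 fell and 0 rose (median log2 fold change -0.57), beside 27.3% and 1.49% of all tested genes. DDIT3, a transcription factor of the integrated stress response that mitochondrial defects also raise, read 18.7 and 18.4 FPKM in controls against 7.93 and 6.66 FPKM with miR-187. The groups were far apart (log2 fold change -1.24 ± 0.19 SE, adjusted p = 0.000962), and DDIT3 was called lower after both other scalings too. ATF4, the activator upstream of DDIT3, read 17.5 and 22.4 FPKM against 11.9 and 7.99 FPKM (log2 fold change -0.95 ± 0.22 SE, adjusted p = 0.00803). TFE3, a regulator of lysosomal and mitochondrial genes, had a log2 fold change of -0.86 (adjusted p = 0.0256). ATF4 and TFE3 were not called after either scaling.

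**Figure D4:**
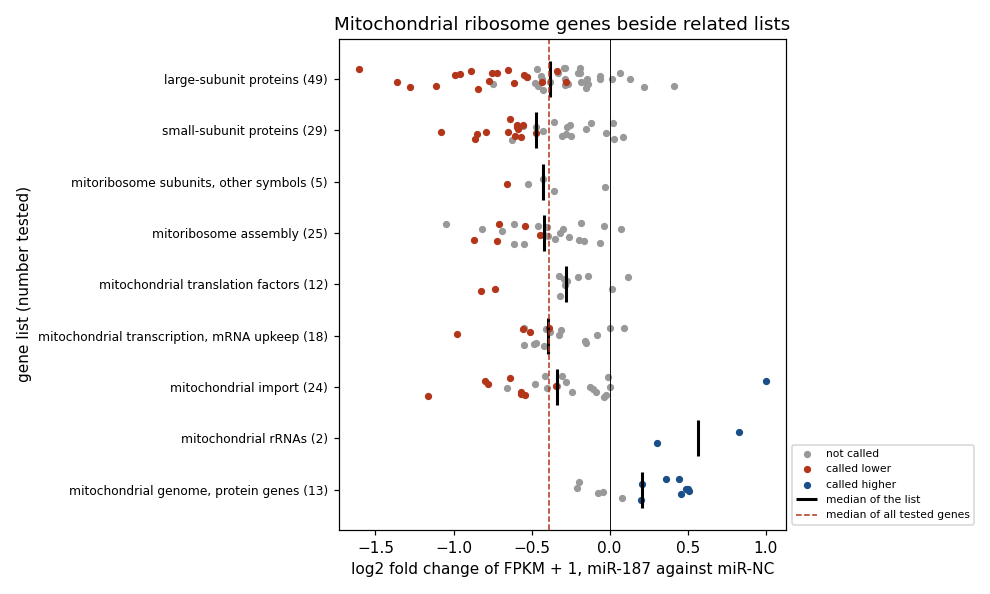
Log2 fold change of FPKM + 1 for each tested gene of the lists named on the vertical axis, with the number tested in brackets. Black bars are list medians and the dashed line the median of all tested genes, -0.39. Medians of the 7 lists of nuclear genes plotted lie between -0.47 and -0.28, whereas both mitochondrial rRNAs lie above 0 as deposited.

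Further protein subunits of the particle go by other symbols. Of 5, 1 fell and 0 rose (median log2 fold change -0.43), beside 27.3% and 1.49% of all tested genes. The gene that fell was CHCHD1, a small-subunit protein with a twin cysteine fold, at 15.0 and 19.9 FPKM in the miR-NC libraries and at 11.8 and 9.52 FPKM in the miR-187 libraries (log2 fold change -0.66 ± 0.20 SE, adjusted p = 0.0304). DAP3, a GTP-binding protein of the small-subunit head, was at 19.2 and 17.8 FPKM against 16.3 and 12.3 FPKM. PTCD3, a pentatricopeptide repeat protein near the mRNA entrance, was at 5.59 and 6.28 FPKM against 3.74 and 3.89 FPKM. GADD45GIP1, a large-subunit protein, was at 7.67 and 12.4 FPKM against 7.48 and 6.56 FPKM, and AURKAIP1, of the small subunit, at 94.0 and 93.7 FPKM against 94.5 and 89.5 FPKM. In AURKAIP1 the groups overlapped, and the adjusted p of these 4 genes ran from 0.0957 for PTCD3 to 0.866 for AURKAIP1.

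Of 25 tested factors that assemble the particle or modify its rRNAs, 5 fell and 0 rose (median -0.42), and 20 did not pass the test, where 27.3% of all tested genes fell. NDUFAB1, the mitochondrial acyl carrier protein, which is also part of the MALSU1 module on the large subunit, measured 188 and 198 FPKM in the miR-NC libraries and 117 and 94.3 FPKM in the miR-187 libraries. Both miR-187 values were far below the controls (log2 fold change -0.87 ± 0.13 SE, adjusted p = 0.00075). DHX30, an RNA helicase of mitochondrial RNA granules, and MRM3, which methylates the large rRNA, had log2 fold changes of -0.72 (adjusted p = 0.0111) and -0.54 (adjusted p = 0.0312).

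Of 12 tested translation factors 2 fell, the insertase OXA1L (-0.74, adjusted p = 0.00857) and TACO1 (-0.83, adjusted p = 0.0243), which activates translation of MT-CO1. None rose as deposited, whereas TUFM, the elongation factor that brings tRNAs to the ribosome, was higher after median-of-ratios scaling. TUFM was not called with quantile normalization. It measured 364 and 394 FPKM in the miR-NC libraries and 409 and 413 FPKM in the miR-187 libraries. Of 18 genes of mitochondrial transcription and mRNA upkeep 4 fell (median -0.40), led by FASTKD3 and SLIRP. Of 24 genes of the import machinery 8 fell and 1 rose (median -0.34). These counts of translation, transcription and import genes stand beside 27.3% of all tested genes that fell and 1.49% that rose. The gene that rose was TOMM22, a receptor of the outer membrane, at 7.90 and 11.6 FPKM against 21.5 and 19.0 FPKM (log2 fold change 1.00 ± 0.21 SE, adjusted p = 0.00481), and it was higher with both scalings too. After median-of-ratios scaling 0 genes of these lists of assembly, translation, transcription and import genes fell, against 3.7% of all tested genes.

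The rRNA partners of these proteins went the other way as deposited. MT-RNR1, the rRNA of the small subunit, measured 3125 and 3620 FPKM in the miR-NC libraries and 5908 and 6054 FPKM in the miR-187 libraries. The groups were far apart, and it rose as deposited and with both other scalings (deposited log2 fold change 0.83 ± 0.08 SE, adjusted p = 5.05e-05). MT-RNR2, the rRNA of the large subunit, was at 11696 and 12841 FPKM against 15206 and 15067 FPKM (log2 fold change 0.30 ± 0.07 SE, adjusted p = 0.00781). It rose as deposited only. Median-of-ratios scaling gave a log2 fold change of 0.79 (adjusted p = 0.18) and quantile normalization one of -0.052 (adjusted p = 0.633). Of the 13 protein genes of the mitochondrial genome, the templates of this ribosome, 8 rose and 0 fell as deposited (median 0.21), while 1 rose after median-of-ratios scaling and 0 after quantile normalization. Of all tested genes 1.49% rose and 27.3% fell as deposited, and 4.67% and 3.57% rose with these scalings. Together the rRNAs and protein genes took 18.7% and 17.6% of all FPKM in controls against 22.3% and 23.8% with miR-187. The part of this share in the lower FPKM of the members was not tested. The paper does not state whether mRNA was selected or rRNA removed. The part of this step in the rRNA values was not tested.

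Broader lists serve as a yardstick. Of 74 cytosolic ribosomal protein genes 29 fell and 2 rose (median -0.22), and of 78 tested nuclear genes of the respiratory chain and ATP synthase 35 fell and 1 rose (median -0.29). All tested genes fell in 27.3% of cases and rose in 1.49%. After median-of-ratios scaling these lists had 0 lower and 5 higher, and 2 lower and 4 higher, beside 3.7% and 4.67% of all tested genes. The mitochondrial ribosomal proteins, at 31 of 78 and a median of -0.43, were not tested against either.

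Endothelial markers were lower with miR-187, whereas epithelial markers were not called. Of 13 endothelial markers 12 had values and 9 were tested. Of the 9, 7 fell as deposited (median -0.98) and 3 after median-of-ratios scaling, beside 27.3% and 3.7% of all tested genes. The summed FPKM of the list was 373 to 477 with miR-NC and 227 to 238 with miR-187. CLDN5 was listed at 0 in every library, and KDR and VWF were below 1 FPKM. The epithelial keratins KRT7, KRT8 and KRT18 were expressed, with 0 of 3 called, while CDH1, CDH17, NKX2-1 and SFTPC were listed at 0. KRT19, EPCAM and SFTPB did not pass the filter. Of 8 fibroblast or smooth muscle markers none reached the filter. Of 6 leukocyte markers PTPRC, CD3E and CD79A were listed at 0 in every library and 2 were tested, of which LYZ fell (log2 fold change -0.95, adjusted p = 0.014) and CD68 did not pass, with 0 of the 2 called after median-of-ratios scaling. The leukocyte list summed to 70.2 and 70.5 FPKM in controls and to 74.1 and 46.2 FPKM with miR-187, most of it CD68. FPKM sums of the libraries ran from 736702 to 763221, and 8098 and 8868 genes reached 1 FPKM with miR-NC against 7290 and 7189 with miR-187. The part of these differences in the results was not tested.

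Other loci could share fragments with the members. The 79 pseudogenes of the family summed to between 1.24 and 4.19 FPKM in a library, and 62 of them were listed at 0 in every library. Exons of 21 members overlap those of another gene with a mean of at least 1 FPKM, on the opposite strand for 14 and on the same strand for 7. The sources do not say whether strand was used in quantification, so reads of such pairs cannot be told apart. MRPS12 shares 349 exon bases with SARS2 on the opposite strand, which measured 9.39 and 13.8 FPKM in the miR-NC libraries and 7.97 and 10.1 FPKM in the miR-187 libraries, far below MRPS12 itself. MRPL32 shares 24 exon bases with PSMA2 on the opposite strand, which stood higher than it, at 136 and 146 FPKM against 71.0 and 68.0 FPKM.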

How the data were processed

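The authors deposited 1 FPKM value per gene, that is fragments scaled by transcript length and by mapped fragments, in each of 4 libraries (2 miR-NC, 2 miR-187). Where abundant transcripts gain share in a library, the FPKM of all others is lower. The submitters' processing notes name HISAT2, StringTie, DESeq2 and hg19, with no versions. Group and replicate came from the sample titles, and 0 columns lacked a sample. Of 62492 rows, 49 pseudoautosomal copies were left out. Symbols were matched by gene identifier, without the version suffix, to a reference of names. Positions and 3′ UTRs come from GENCODE 29 and promoters and the miRNA from RefSeq, both on GRCh38, and nothing was converted from hg19. Depth is unknown. Steps of single reads were sought in the low values, but the commonest ratio between libraries held for only 1.87% to 3.13% of low genes, so whole reads were not recovered and no counting interval is given.

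The filter kept genes that reached 1 FPKM in 2 or more libraries. They were tested on log2(FPKM + 1), a pseudocount of 1 that understates the fold change of low genes, with limma 3.58.1 in R 4.3.3 (linear model on group, moderated variances with an intensity trend, two-sided, Benjamini-Hochberg over all 8196 tested genes, threshold 0.05). The fit had 2 residual and 10.9 prior degrees of freedom. Rose and fell mean that a gene passed this test. No exact permutation test of 2 libraries against 2 can reach the threshold, and none was used. Lists are described by counts and medians. Such counts are to be read beside the shares of all tested genes, 27.3% lower and 1.49% higher as deposited. After median-of-ratios scaling these shares were 3.7% and 4.67%. The members and lists were chosen with earlier results of these data known. In each subunit the rule named the 8 called members with the smallest adjusted p, the 2 with the highest mean FPKM, the 2 with a fold change nearest 0 and every member called higher. Of the other lists up to 3 genes with the smallest p were named, except where a gene is described for its role in the text, which was chosen after its values were seen. Alternatives were median-of-ratios scaling, TPM, quantile normalization, a pseudocount of 0.1, no filter, a filter at 5 FPKM, the replicate number as a block, subunits by structure and leaving out each library. The steps were tested on simulated data. Other steps used Python 3.11.15 (numpy 2.4.6, pandas 2.3.3, matplotlib 3.10.9). A further promoter stretch, beside the 3 printed, is not reported here.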

Additional observations from a re-analysis of the deposited data

How the results depend on the processing

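The 31 members called lower became 0 with median-of-ratios scaling, 4 with quantile normalization, 0 with no filter on low values and 17 to 36 when 1 library was left out. With no filter 25001 genes were tested and 0 were called, although 4189 had an unadjusted p under 0.05, 40 of them members that were lower. The count was 39 as TPM, 29 with a pseudocount of 0.1 and 35 with a filter at 5 FPKM, which 74 members passed. Of all tested genes 2590 of 8196, 2168 of 8196 and 1844 of 4110 were called lower in these settings. The 0 members called higher became 6 with median-of-ratios scaling and 4 with quantile normalization. Of all tested genes 2358 were called as deposited, 686 with median-of-ratios scaling, 612 with quantile normalization, 0 with no filter and 894 to 2838 with 1 library left out. The median log2 fold change of the large-subunit members, -0.38, was 0.10 with median-of-ratios scaling, -0.018 with quantile normalization and -0.46 to -0.30 with 1 library left out. That of the small-subunit members, -0.47, was -0.052 and -0.11 with these scalings. The difference between the subunits, 0.09, was 0.022 with subunits by structure, 0.149 with median-of-ratios scaling, 0.152 with a pseudocount of 0.1, 0.137 with a filter at 5 FPKM and 0.0762 to 0.148 with 1 library left out. The ratio of the large to the small FPKM sum, 1.12 times higher with miR-187, was 1.04 times higher with MRPS12 left out, an alternative chosen after seeing the data. With the replicate block 35 members were called lower. Same-numbered libraries did not deviate together (correlation of deviations -0.06), so the numbers were not taken as pairs. The 16 named members that fell were picked by their p in these same libraries. All 16 lost their call with median-of-ratios scaling and with no filter, and 12 lost it with quantile normalization. With TPM, a pseudocount of 0.1, a filter at 5 FPKM or the replicate block each was still called. Under the alternatives 0 of their values were reversed. Fits without a library leave 1 sample in a group, which is then assumed to vary like the other group. The depth of the libraries is unknown, and 2 libraries a group limit what could be detected.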
